A study of Mus musculus with 30 samples.

Results

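Microglia that had repopulated the brain of adult mice after pharmacological depletion were compared with the juvenile microglia that the same kind of animal carries before depletion. Both groups were offspring of C57BL/6J dams that were given poly(I:C), an RNA that the immune system reads as viral, while pregnant (maternal immune activation, MIA). The 6 libraries, of 30 in the series, were chosen by their labels: 3 from P20 pups (P20 MIA), and 3 from P60 adults that had been fed chow with PLX5622, an inhibitor of the CSF1 receptor (CSF1R), and afterwards control chow (MIA + MG-REP). Each library held the RNA of CD11b+ cells taken with magnetic beads from the whole brain of 1 animal. Any CD11b+ macrophage of the brain is taken along by such beads. MIA + CTRL, P60 MIA offspring on control chow without depletion (3 libraries), are set beside both groups. MIA + MG-REP differed from P20 MIA in age, in diet and in having been depleted, which cannot be told apart in this comparison alone. P20 Saline and Saline + MG-REP, offspring of saline-injected dams at P20 and at P60 after the same chow sequence (3 libraries each), are used for the same step without MIA.

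Microglia are the resident macrophages of the brain. They arise from yolk sac progenitors, renew themselves in place, and depend on signals through CSF1R for survival, so that inhibitors of the receptor remove most of them. When the inhibitor is withdrawn, the remaining cells divide and refill the brain. In the juvenile brain, microglia clear dying cells and surplus synapses while myelination is under way, and in the adult they settle into a surveillant state marked by genes such as *P2ry12*, *Tmem119* and *Cx3cr1*.

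Levels are in TPM, an abundance scaled by transcript length and by the total of the library, for 14225 transcripts. From the steps between low values, the 6 libraries were estimated to hold 10000000 to 10900000 counted reads, so that 1 read of a 1 kb transcript is worth 0.243 to 0.275 TPM. Correlations within a group were 0.988 to 0.992. Markers of microglia made up 96.4% ± 0.848 (SD, n = 3) of the purity markers of the study in P20 MIA and 98.4% ± 0.490 in MIA + MG-REP, with no overlap, at an exact two-sided permutation p of 0.1, the smallest that 3 against 3 libraries allow. Of the 5 microglial markers, *Fcrls* was called lower. The labels give no sex. *Xist*, which is transcribed from the inactive X chromosome of females, was at 189 to 191 TPM in P20 MIA and 159 to 174 in MIA + MG-REP, and 4 Y-linked genes summed to at most 0.62 TPM in these 6 libraries. None of these 5 transcripts was called by limma, and 0 had an unadjusted p under 0.05. The spread was shared with groups in which *Xist* varied between libraries (SE 1.33 log2 units), so that this test could hardly call a difference. The *Xist* levels did not overlap between P20 MIA and MIA + MG-REP. In MIA + CTRL, 1 of 3 libraries had *Xist* above 50 TPM, with 139.87, 0.14 and 0.2 in library order. *Ddx3y*, which is Y-linked, was at 0.28, 122.66 and 115.09 TPM in the same order. MIA + CTRL thus held both the female and the male pattern, and the 6 libraries of P20 MIA and MIA + MG-REP the female one alone. Sex pattern therefore differed, beside age or treatment, in both comparisons with MIA + CTRL.

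Of the 14225 transcripts, 627 (4.41%) differed between MIA + MG-REP and P20 MIA at an adjusted p under 0.05 (limma on log2(TPM + 1), Benjamini-Hochberg over all transcripts, two-sided). The juvenile group held more of them, with 189 transcripts (1.33%) higher and 438 (3.08%) lower in MIA + MG-REP. At an unadjusted p under 0.05 the share was 16.7%. The groups did not overlap for 626 of the 627 (4.4% of all transcripts), and for 34.7% of all transcripts whether called or not. The median change of the called transcripts was 0.84 log2 units in either direction, and 88 rose and 141 fell by at least 1 log2 unit. The share of calls that were higher, 30.1%, depended on the scaling of the libraries: it was 42.7% (213 higher, 286 lower) with median-ratio scaling and 42.1% (271 higher, 373 lower) with quantile normalization. For the same P20 MIA libraries against MIA + CTRL, 370 transcripts (2.6%) were called, 146 higher (1.03%) and 224 lower (1.57%). Between the P60 groups, MIA + MG-REP and MIA + CTRL, 79 (0.555%) were called, 55 higher (0.387%) and 24 lower (0.169%). MIA + MG-REP libraries enter both the first and the last comparison, and P20 MIA libraries both the first and the second, so that their calls are not set against each other. Each gene is given with its values in all 3 groups.

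**Figure D1:**
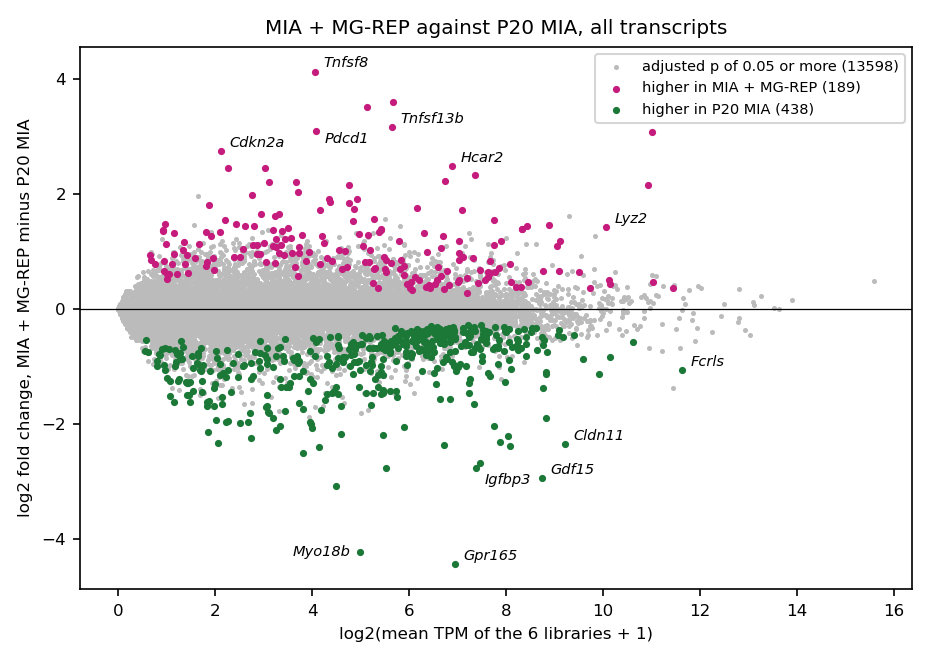
Log2 fold change (MIA + MG-REP minus P20 MIA) of each of the 14225 transcripts against the log2 of its mean TPM in the 6 libraries plus 1. Coloured points have an adjusted p under 0.05 in limma: 189 are higher in MIA + MG-REP and 438 are higher in P20 MIA, with *Tnfsf8* at the top and *Gpr165* at the bottom.

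The largest rise was in *Tnfsf8* (NM_009403, chr4:63831202-63861508), the ligand of the TNF receptor family member CD30. It was at 0.59, 1.23 and 0.67 TPM in the P20 MIA libraries and at 32.85, 30.88 and 28.31 in MIA + MG-REP, a change of 4.13 log2 units (SE 0.23, adjusted p = 3.11e-11). In MIA + CTRL it was at 2.66, 1.12 and 1.99 TPM, close to the juvenile level, and the difference between the P60 groups was 3.47 log2 units (adjusted p = 1.37e-09). *Tnfsf13b* (NM_033622, chr8:10006229-10036000) encodes BAFF, a survival factor of B cells. It was at 9.57, 7.94 and 9.68 TPM in P20 MIA, 17.03, 26.99 and 31.93 in MIA + CTRL, and 94.09, 92.44 and 80.28 in MIA + MG-REP. The 3 groups were thus stepped without overlap, and MIA + MG-REP was above P20 MIA by 3.16 log2 units (SE 0.29, adjusted p = 2.01e-07) and above MIA + CTRL by 1.81 (adjusted p = 0.00135).

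*Pdcd1* (NM_008798, chr1:94038305-94052553), the inhibitory receptor PD-1 of lymphocytes and activated myeloid cells, was at 1.63, 2.14 and 4.13 TPM in P20 MIA, 3.07, 2.59 and 3.75 in MIA + CTRL, and 29.9, 33.62 and 24 in MIA + MG-REP. It rose by 3.10 log2 units from the juvenile group (SE 0.26, adjusted p = 5.35e-08), and the P60 groups differed by 2.86 (adjusted p = 2.66e-07). *Cdkn2a* (NM_001040654, chr4:89274473-89294619) encodes inhibitors of the cell cycle that accumulate in cells that have divided many times. Of the P20 MIA libraries, 2 held it at 0 and 1 at 0.29 TPM, against 8.02, 7.78 and 4 TPM in MIA + MG-REP and at most 0.65 in MIA + CTRL. The change on the log2(TPM + 1) scale was 2.75 (SE 0.21, adjusted p = 9.15e-09), and the P60 groups differed by 2.64 (adjusted p = 2.33e-08). Levels of all 4 genes were therefore low in juvenile and in undepleted adult MIA microglia, *Tnfsf13b* excepted, and high in each of the 3 repopulated libraries.

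*Hcar2* (NM_030701), a receptor for the ketone body beta-hydroxybutyrate, was at 34.86, 29.66 and 38 TPM in P20 MIA and 232.29, 222.62 and 144.64 in MIA + MG-REP (2.49 log2 units, SE 0.53, adjusted p = 0.00645), with 39.33, 16.12 and 15.6 in MIA + CTRL. *Sh2d1b1* (NM_012009), an adaptor of SLAM family receptors, was at 1.39 to 3.47 TPM in P20 MIA, 1.15 to 1.94 in MIA + CTRL and 11.53 to 15.38 in MIA + MG-REP (2.21 log2 units, SE 0.37, adjusted p = 0.000635). Both genes also differed between the P60 groups, by 3.12 (adjusted p = 0.00213) and 2.42 (adjusted p = 0.000618). Other large rises had MIA + CTRL in between. *Chst1* (NM_023850), a sulfotransferase that acts on keratan sulfate, was at 40.94, 35.58 and 33.25 TPM in P20 MIA, 104.54, 69.81 and 68.4 in MIA + CTRL, and 178.32, 172.66 and 173.82 in MIA + MG-REP (2.23 log2 units above P20, SE 0.31, adjusted p = 8.61e-05). *Inmt*, an N-methyltransferase of indolamines, and *Fmo2*, a flavin monooxygenase, rose by 2.45 (adjusted p = 1.04e-05) and 2.21 (adjusted p = 3.08e-05), and in each the P60 groups did not differ at an adjusted p under 0.05 (adjusted p = 0.168 and 0.169). *C030029H02Rik*, a non-coding RNA, was raised in both P60 groups, at 5.59 to 10.01 TPM in MIA + MG-REP and 4.2 to 15.14 in MIA + CTRL against 0.22 to 0.6 in P20 MIA.

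The remaining 5 of the 15 largest rises were led by non-coding RNAs. *Rn45s*, the ribosomal RNA precursor, was at 576.7, 648.99 and 610.69 TPM in P20 MIA, 1751.56, 1894.85 and 6245.46 in MIA + MG-REP, and 1372.94, 604.64 and 916.97 in MIA + CTRL. *Mir6236*, *Lars2* (a mitochondrial leucyl-tRNA synthetase), *Rpph1* and *Rmrp* (the RNA parts of RNase P and RNase MRP) rose by 3.08, 2.33, 3.51 and 3.61 log2 units. *Lars2* was at 145.74, 153.52 and 549.8 TPM in MIA + MG-REP and 143.72, 57.62 and 92.13 in MIA + CTRL. Within each of these groups its libraries had the same order as for *Rn45s*, and why was not tested. In all 5, the highest of the 6 libraries was MIA + MG-REP 3. Without that library, *Rn45s* and *Rmrp* did not pass (adjusted p = 0.0833 and 0.112), nor did *Rmrp* without P20 MIA 1 (adjusted p = 0.0558), while the other 3 had adjusted p between 0.0298 and 0.0347. The libraries were made from poly(A) RNA, and whether the enrichment of poly(A) RNA differed between the groups was not tested.

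**Figure D2:**
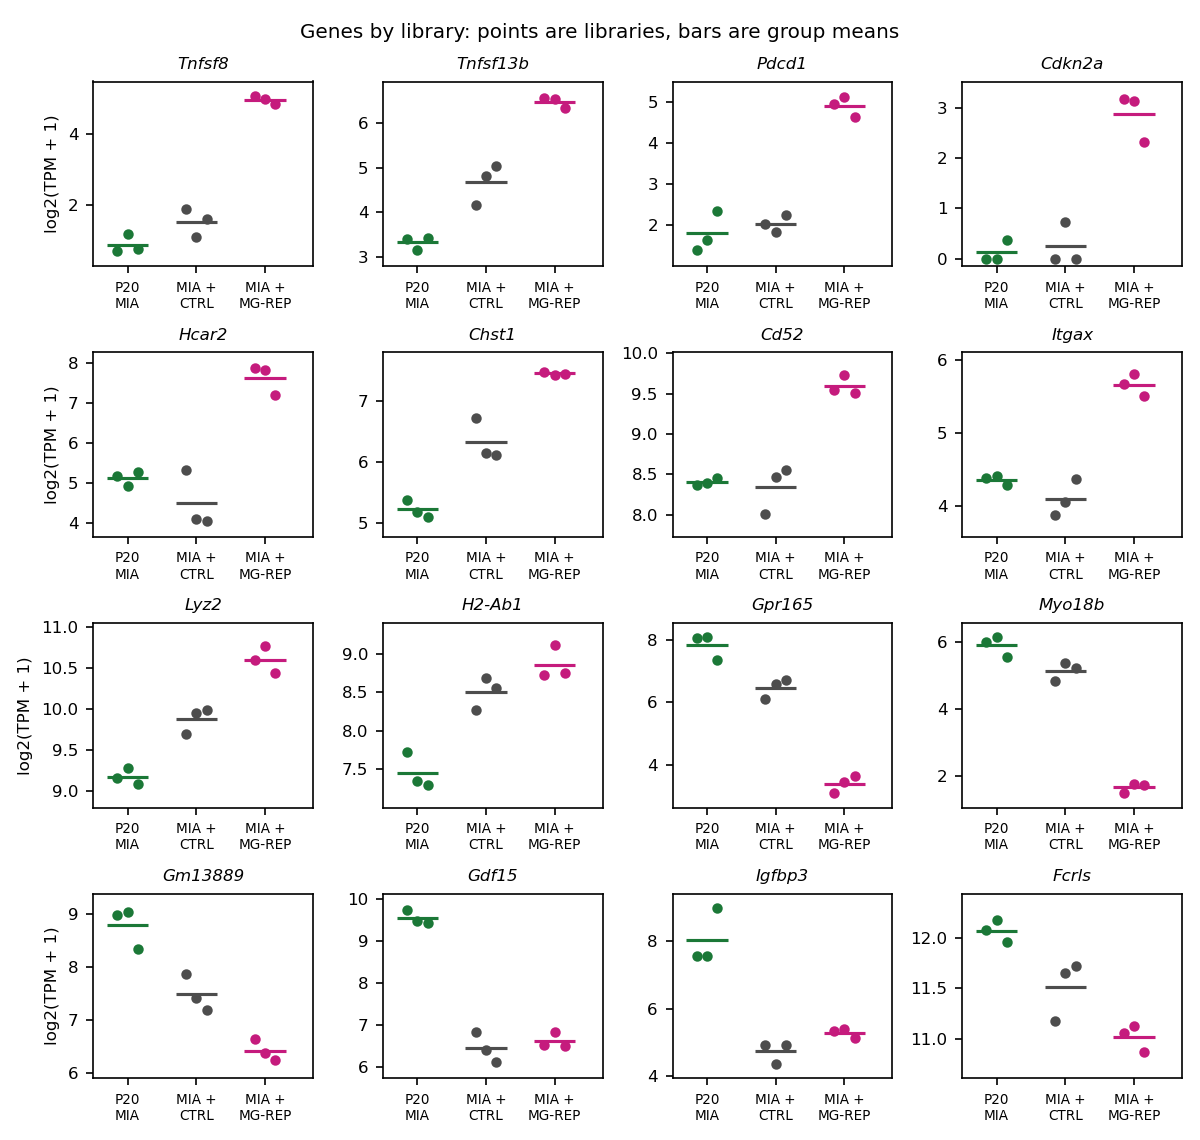
Level of 16 genes, as log2(TPM + 1), in each library (points) of P20 MIA, MIA + CTRL and MIA + MG-REP, with group means (bars); vertical axes differ and need not start at 0. Of the 3 groups shown, MIA + MG-REP alone is high for *Tnfsf8*, *Pdcd1*, *Cdkn2a*, *Hcar2*, *Cd52* and *Itgax*. Saline + MG-REP, not shown, was also high for *Cd52* (2413.83 to 2841.43 TPM) and *Itgax* (76.83 to 100.64 TPM). *Lyz2* and *H2-Ab1* lie in between or near MIA + MG-REP in MIA + CTRL, and *Gdf15* and *Igfbp3* are low in both P60 groups shown.

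Some genes of MHC class II, which presents peptides to CD4 T cells, rose in the repopulated microglia. Of 9 measured transcripts, 4 were called higher, 0 lower and 5 neither, against 1.33% higher among all transcripts, and the median of the 9 was 0.78 log2 units, against -0.04 for all transcripts. *H2-Ab1* (NM_207105, chr17:34263227-34269418), the beta chain of I-A, was at 210.19, 162.27 and 155.77 TPM in P20 MIA and 420.01, 549.7 and 428.59 in MIA + MG-REP (1.40 log2 units, SE 0.28, adjusted p = 0.00375). *H2-Aa*, the alpha chain, went from 206.38, 166.43 and 157.99 to 421.12, 539.93 and 441.1 TPM (1.40, SE 0.30, adjusted p = 0.00683). *H2-Eb1*, the beta chain of I-E, went from 134.39, 95.56 and 95.97 to 277.12, 383.83 and 296.77 (1.55, SE 0.33, adjusted p = 0.00706). For these chains the MIA + CTRL libraries lay mostly between the 2 groups, at 331.45, 422.24 and 414.71 TPM for *H2-Aa*, and the P60 groups did not differ at an adjusted p under 0.05 (adjusted p = 0.978 for each). *H2-DMa*, which helps to load the peptide, had another pattern: 202.45, 199.68 and 195.77 TPM in P20 MIA, 135.4, 181.94 and 205.37 in MIA + CTRL, and 351.58, 358.61 and 319.8 in MIA + MG-REP. It was above P20 MIA by 0.78 log2 units (SE 0.18, adjusted p = 0.0107, and 0.0573 with median-ratio scaling) and above MIA + CTRL by 0.99 (adjusted p = 0.00452). *Cd74*, the invariant chain, had a mean of 20.9 TPM in P20 MIA and 44.8 in MIA + MG-REP and was not called (adjusted p = 0.086).

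MHC class II promoters share an inverted CCAAT box, the Y box, bound by the factor NF-Y. The 250 bases before the start of *H2-Aa* and *H2-Eb1* (RefSeq, GRCm38.p6) are shown because both genes rose and both windows hold the letters CTGATTGG, which are in capitals and begin 51 and 62 bases before the start. On either strand, CTGATTGG occurs in 3.83% of 32851 promoter windows of this length and in 3 of the 7 MHC class II genes with a window (*H2-Aa*, *H2-Eb1* and *H2-Oa*). A match of letters is a description, not a binding site. The windows are chr17:34287824-34288073 (minus strand) and chr17:34305617-34305866 (plus strand).
H2-Aa: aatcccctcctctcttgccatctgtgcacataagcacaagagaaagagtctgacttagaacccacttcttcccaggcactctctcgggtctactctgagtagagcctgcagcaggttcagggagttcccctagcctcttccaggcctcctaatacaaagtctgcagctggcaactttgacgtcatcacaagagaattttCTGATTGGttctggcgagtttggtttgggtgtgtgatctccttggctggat
H2-Eb1: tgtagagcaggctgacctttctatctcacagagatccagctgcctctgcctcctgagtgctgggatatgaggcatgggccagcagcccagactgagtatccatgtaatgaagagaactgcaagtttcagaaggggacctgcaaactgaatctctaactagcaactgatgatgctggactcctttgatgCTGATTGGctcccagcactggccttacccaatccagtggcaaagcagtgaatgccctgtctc

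Of the genes of disease-associated (DAM/MGnD) microglia, a state described in models of neurodegeneration, 3 of 25 transcripts were higher and 1 was lower. Among all transcripts 1.33% were higher and 3.08% lower. The median of the list was 0.19 log2 units, against -0.04 for all transcripts. *Cd52*, a small glycoprotein of the leukocyte surface, was at 329.22, 334.56 and 349.14 TPM in P20 MIA, 257.46, 354.53 and 375.87 in MIA + CTRL, and 747.38, 845.64 and 726.71 in MIA + MG-REP (1.19 log2 units above P20 MIA, SE 0.18, adjusted p = 0.000188). *Itgax*, the integrin CD11c, was at 19.86, 20.36 and 18.57 TPM in P20 MIA, 13.72, 15.67 and 19.62 in MIA + CTRL, and 49.67, 54.82 and 44.29 in MIA + MG-REP (1.29, SE 0.21, adjusted p = 0.000505). *Lyz2*, the lysozyme of myeloid cells, was at 570.41, 623.31 and 542.98 TPM in P20 MIA, 827.46, 989.94 and 1014.62 in MIA + CTRL, and 1546.49, 1732.47 and 1388.11 in MIA + MG-REP (1.42, SE 0.24, adjusted p = 0.000943). *Cd52* and *Itgax* differed between the P60 groups (1.24, adjusted p = 0.000375, and 1.55, adjusted p = 0.000164), and *Lyz2* did not (adjusted p = 0.354). *Lpl*, lipoprotein lipase, fell from 55.98, 71.04 and 42.45 to 25.92, 31.87 and 24.44 TPM (adjusted p = 0.0477). It did not pass with any of 5 libraries left out in turn, P20 MIA 3 being the exception (up to 0.227, without P20 MIA 2), nor with median-ratio scaling (adjusted p = 0.137) or quantile normalization (adjusted p = 0.0538). Most members were not called: the means in P20 MIA and MIA + MG-REP were 9.46 and 10.9 TPM for *Trem2*, the lipid receptor of this state, 3107 and 3892 for its partner *Tyrobp*, 32.99 and 49.67 for *Cst7*, a cystatin, and 0.76 and 0.27 for *Spp1*, osteopontin.

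The promoter of *Sh2d1b1* is shown because the gene was higher in MIA + MG-REP than in both P20 MIA and MIA + CTRL, and the window holds 2 copies of TGANTCA, the AP-1 motif bound by FOS and JUN dimers, in capitals. The window is the 250 bases before the start in GRCm38.p6, chr1:170277068-170277317 (plus strand). TGANTCA occurs on either strand in 6.75% of the 32851 windows, and in 2 of the 10 genes of the largest rises that have one (*Sh2d1b1* and *Tnfsf13b*), and in 0 of 10 of the largest falls. It also occurs in 2 of the 7 MHC class II genes with a window (*H2-DMa* and *H2-DMb1*). These counts are small and were not tested, and a match of letters is not a binding site.
Sh2d1b1: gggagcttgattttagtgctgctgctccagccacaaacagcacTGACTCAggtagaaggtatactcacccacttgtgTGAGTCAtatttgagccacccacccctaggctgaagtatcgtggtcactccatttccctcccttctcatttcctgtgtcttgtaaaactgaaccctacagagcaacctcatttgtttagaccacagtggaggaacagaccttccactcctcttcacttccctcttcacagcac

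The largest falls were in *Gpr165* and *Myo18b*. *Gpr165* (NM_029536, chrX:96713468-96719388), an orphan G protein-coupled receptor, was at 267.19, 270.41 and 163.39 TPM in P20 MIA, 67.61, 94.45 and 104.85 in MIA + CTRL, and 7.47, 10.04 and 11.54 in MIA + MG-REP. It fell by 4.44 log2 units (SE 0.40, adjusted p = 1.41e-07), a ratio of mean TPM of 24.1. The difference between MIA + MG-REP and MIA + CTRL was -3.07 log2 units (adjusted p = 9.73e-05), while that between MIA + CTRL and P20 MIA was -1.37 and did not pass (adjusted p = 0.0638). *Myo18b* (NM_028901, chr5:112688876-112896461), an unconventional myosin, was at 61.93, 68.71 and 46.06 TPM in P20 MIA, 27.11, 40.49 and 36.35 in MIA + CTRL, and 1.81, 2.37 and 2.34 in MIA + MG-REP. The changes were -4.22 from P20 MIA (SE 0.27, adjusted p = 5.64e-10) and -3.48 from MIA + CTRL (adjusted p = 2.33e-08). In both genes, every MIA + MG-REP library was thus far below every undepleted adult library.

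*Gm13889*, a predicted gene, was stepped through all 3 groups, at 507, 529.93 and 324.74 TPM in P20 MIA, 233.97, 170.19 and 144.27 in MIA + CTRL, and 98.96, 81.56 and 74.21 in MIA + MG-REP (-2.38, SE 0.21, adjusted p = 1.41e-07). *Ptger3*, a receptor for prostaglandin E2, was at 5.58, 5.18 and 5.55 TPM in P20 MIA and 6.68, 6.47 and 9.15 in MIA + CTRL, and fell to 0.52, 0.61 and 0.96 in MIA + MG-REP (-1.93, SE 0.29, adjusted p = 0.000176). The difference from MIA + CTRL was -2.31 log2 units (adjusted p = 6.7e-05). *Ccdc162*, a coiled-coil gene, fell by 2.50 log2 units (adjusted p = 8.61e-05), with 14.03 to 15.1 TPM in MIA + CTRL against 2.59 to 3.39 in MIA + MG-REP, and *5730435O14Rik*, a non-coding RNA, by 2.33 (adjusted p = 0.00113), with 3.03 to 3.2 and at most 0.79 TPM in these groups.

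In another set of large falls, both P60 groups were low. *Gdf15* (NM_011819, chr8:70629393-70632470), a stress-induced cytokine of the TGF-beta superfamily, was at 860.53, 712.04 and 691.7 TPM in P20 MIA, 113.7, 83.54 and 68.56 in MIA + CTRL, and 91.24, 113.63 and 89.28 in MIA + MG-REP. It fell by 2.93 log2 units to the repopulated group (SE 0.31, adjusted p = 1.78e-06), a ratio of 7.7. The 2 P60 groups overlapped (difference 0.17, adjusted p = 0.979). *Igfbp3*, a binding protein of insulin-like growth factors, was at 189.06, 189.85 and 505.55 TPM in P20 MIA, 29.34, 19.56 and 29 in MIA + CTRL, and 39.53, 40.71 and 34.17 in MIA + MG-REP (-2.76, SE 0.52, adjusted p = 0.00219). *Rnase2a*, an eosinophil-associated ribonuclease, was at 8.77 to 10.83 TPM in P20 MIA and at most 2.01 in either P60 group (-2.25, adjusted p = 0.00486, and 0.0624 with a pseudocount of 0.1). *9630013A20Rik*, a non-coding RNA, fell by 3.07 log2 units (adjusted p = 0.00142), to 3.45 to 3.89 TPM in MIA + MG-REP, with 3.18 to 10.71 in MIA + CTRL.

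Some myelin and oligodendrocyte transcripts fell. Of 17 marker transcripts of the oligodendrocyte lineage, 6 were called lower and 0 higher, against 3.08% lower among all transcripts. All 17 had a negative change, and the median was -1.21 log2 units. The summed level of the list was 4301, 2926 and 2901 TPM in P20 MIA, 1288, 700 and 888 in MIA + MG-REP, and 2493, 1457 and 943 in MIA + CTRL. *Cldn11*, a tight junction protein of the myelin sheath, was at 1242.8, 859.3 and 850.3 TPM in P20 MIA and 281.68, 134.47 and 181.79 in MIA + MG-REP (-2.34, SE 0.54, adjusted p = 0.0114). *Mog* and *Mag*, myelin glycoproteins, *Cnp*, a phosphodiesterase of myelin, and *Ugt8a*, the enzyme that makes galactosylceramide, fell by 2.31, 1.89, 2.05 and 2.67 log2 units (adjusted p = 0.0127, 0.0128, 0.0183 and 0.00956). *Gpr17*, *Enpp6* and *Fa2h*, outside the list but of the same lineage, fell by 2.77, 2.40 and 2.36. None of these 8 genes differed between the P60 groups at an adjusted p under 0.05 (adjusted p of 0.955 to 0.979). Of the 6 libraries, P20 MIA 1 was highest and MIA + MG-REP 2 lowest for *Cldn11*, *Mog*, *Mag*, *Cnp* and *Fa2h*. With fewer libraries, fewer passed: the count of 6 fell to 0 without P20 MIA 1, to 1 without MIA + MG-REP 2 and to 1 without MIA + MG-REP 3, while the median of the list stayed between -1.45 and -1.04 log2 units without any 1 of the 6. The calls had adjusted p of up to 0.0953 for *Cldn11*, *Mog*, *Mag*, *Cnp* and *Ugt8a* and up to 0.126 for *Gpr17*, which did not pass without any 1 of the 6 libraries. For *Enpp6* and *Fa2h* it went up to 0.0566 and 0.0838, without MIA + MG-REP 2. Fewer oligodendrocyte fragments in the isolate and less RNA per fragment cannot be told apart in bulk samples.

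**Figure D3:**
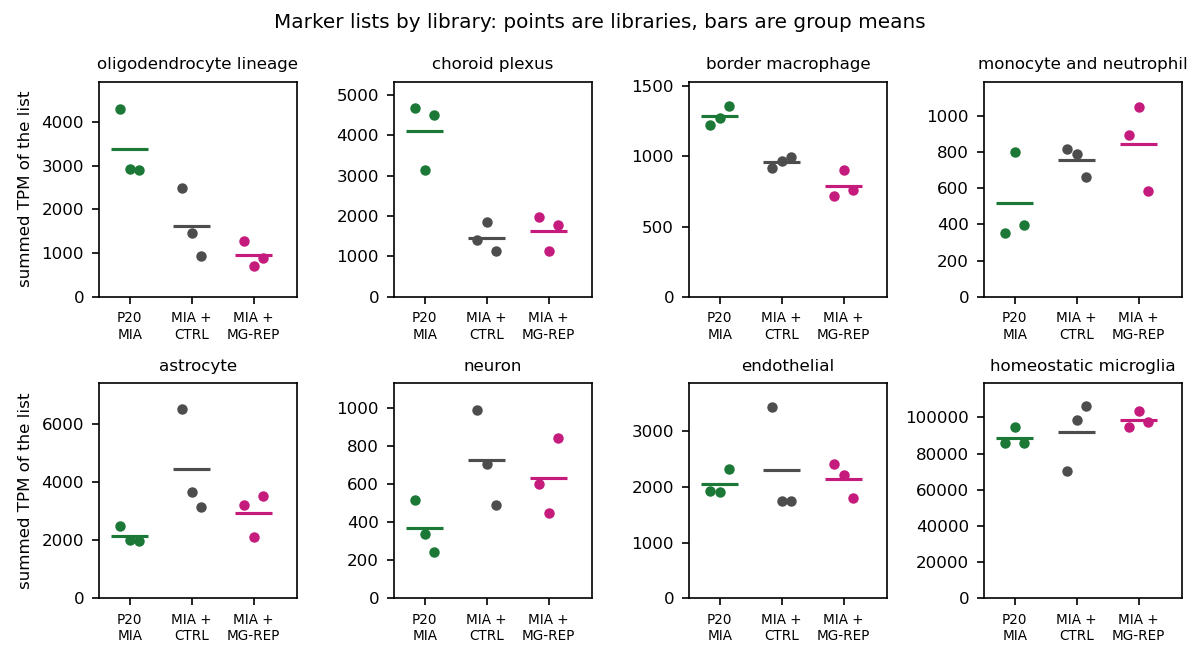
Summed TPM of 8 marker lists in each library (points) of P20 MIA, MIA + CTRL and MIA + MG-REP, with group means (bars); axes start at 0. Oligodendrocyte lineage, choroid plexus and border macrophage sums are lower in every MIA + MG-REP library than in every P20 MIA library. The sums of homeostatic microglial genes are 85540 to 94600 TPM in P20 MIA and 94819 to 103598 in MIA + MG-REP. Of the 24 transcripts in that sum, 19 had a change below 0, so the sum does not stand for most members.

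Other cell types were followed in the same way. Of 8 choroid plexus transcripts, *Enpp2*, which is also on the oligodendrocyte list, was called lower (-1.14, adjusted p = 0.0419, and up to 0.188 without MIA + MG-REP 3). The list summed to 3133 to 4664 TPM in P20 MIA and 1130 to 1973 in MIA + MG-REP, most of it from *Ttr*, transthyretin (means 3983 and 1563 TPM, adjusted p = 0.328). Of 10 markers of border macrophages, the macrophages of the meninges and vessels, 3 were lower and 1 was higher, against 3.08% and 1.33% of all transcripts. Their sum went from 1227, 1270 and 1362 to 717, 902 and 759 TPM. *Mrc1*, the mannose receptor, fell from 261.73, 247.47 and 294.12 to 101.57, 151.73 and 120.46 TPM (-1.11, SE 0.22, adjusted p = 0.00387), with 174.17 to 186.52 in MIA + CTRL. *Cd163*, a hemoglobin scavenger receptor, fell by 0.75 (adjusted p = 0.00684) from levels of at most 1.28 TPM, and did not pass without P20 MIA 3 (adjusted p = 0.0589), without which 1 of the 3 markers was called lower. *Cbr2*, a carbonyl reductase, had an adjusted p of 0.0493 that went up to 0.216 without P20 MIA 3. *Clec12a*, an inhibitory lectin, was higher, at 5.38 to 9.65 against 16.65 to 21.82 TPM (1.29, adjusted p = 0.0374, and up to 0.163 without P20 MIA 3). It was not called under either other scaling.

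*Ccr2*, the chemokine receptor of infiltrating monocytes, was at 11.46, 9.88 and 7.98 TPM in P20 MIA, 18.96, 16.72 and 13.61 in MIA + CTRL, and 24.71, 29.82 and 20.82 in MIA + MG-REP (1.28, SE 0.28, adjusted p = 0.009). It did not pass without P20 MIA 3 (adjusted p = 0.0577) or MIA + MG-REP 2 (adjusted p = 0.055). It was the only one of 14 monocyte and neutrophil transcripts called, against 1.33% higher and 3.08% lower among all transcripts. The list summed to 352, 800 and 395 TPM in P20 MIA and 895, 1046 and 586 in MIA + MG-REP, with overlap. Of 8 lymphocyte transcripts, *Cd79b*, a part of the B cell receptor, fell from 2.23 to 4.9 TPM to 0.2 to 0.43 (-1.62, adjusted p = 0.000233), and *Cd4* from 6.01 to 7 to 1.1 to 3.56 (-1.18, adjusted p = 0.0316, and up to 0.225 without MIA + MG-REP 1). None of 15 neuronal, 17 astrocytic, 14 endothelial or 4 erythroid transcripts was called by limma. Their median changes were 0.36, 0.28, -0.08 and -0.37 log2 units, and 2, 1, 0 and 0 had an unadjusted p under 0.05. What part these cell types had in the levels of other genes was not tested.

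Of the homeostatic genes of microglia, few passed the test. Of 24 transcripts, 1 was lower and 0 were higher, against 3.08% and 1.33% of all transcripts. The median was -0.20, against -0.04 for all transcripts, and 19 of the 24 changes were below 0. The exception was *Fcrls*, an Fc receptor-like gene used as a marker of mouse microglia, at 4319, 4630 and 3996 TPM in P20 MIA, 2311, 3223 and 3375 in MIA + CTRL, and 2124, 2227 and 1870 in MIA + MG-REP. It fell by 1.06 log2 units (SE 0.20, adjusted p = 0.00206) and did not differ between the P60 groups at an adjusted p under 0.05 (adjusted p = 0.565). The purinergic receptor *P2ry12* had means of 4580 TPM in P20 MIA and 3108 in MIA + MG-REP (adjusted p = 0.22), *Tmem119* 3167 and 3152, and the fractalkine receptor *Cx3cr1* 3944 and 3434. The summed level of the list went the other way than most members. It was 85540 to 94600 TPM in P20 MIA and 94819 to 103598 in MIA + MG-REP.

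Of 23 transcripts of the CSF1R and TGF-beta axis, 2 were lower, against 3.08% of all transcripts. *Csf1r* itself, the receptor that PLX5622 blocks, had means of 8803 TPM in P20 MIA and 6818 in MIA + MG-REP (-0.37, adjusted p = 0.346), with 7346 in MIA + CTRL. *Skil*, a repressor of SMAD signaling, was lower by 0.71 log2 units (adjusted p = 0.00932, and 0.0627 without MIA + MG-REP 3), and *Nrros*, which tethers latent TGF-beta on microglia, by 0.56 (adjusted p = 0.0393, and up to 0.206 without MIA + MG-REP 3). Of 20 transcripts of microglial transcription factors, 2 were lower, against the same 3.08%. *Nr4a1*, an orphan nuclear receptor that is also an immediate early gene, went from 1281.98, 1214.4 and 1918.38 to 829.08, 886.06 and 706.81 TPM (-0.84, adjusted p = 0.0108, and up to 0.101 without P20 MIA 3), and *Maf* from 643.91, 616.69 and 471.8 to 339.41, 359.66 and 327.81 (-0.74, adjusted p = 0.0137, and up to 0.082 without P20 MIA 1). In both, the MIA + CTRL libraries were also below every P20 MIA library.

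**Figure D4:**
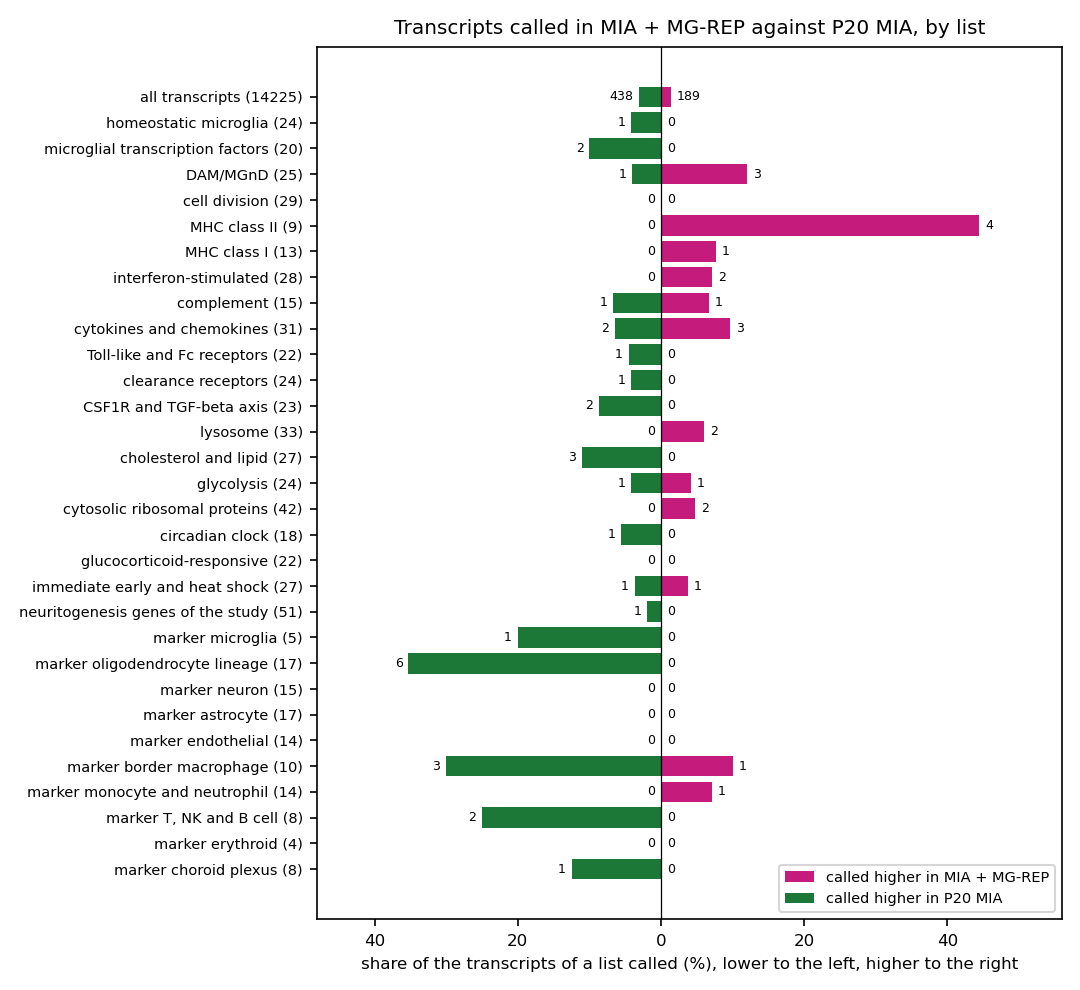
Share of the transcripts of each list (number in brackets) called in MIA + MG-REP against P20 MIA, lower to the left and higher to the right, with the counts beside the bars. Among all transcripts 3.08% were called lower and 1.33% higher; MHC class II has 4 of 9 higher, the oligodendrocyte lineage 6 of 17 lower, and cell division 0 of 29 in either direction.

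Genes of cell division were not called in either direction by limma (0 of 29), against 4.41% of all transcripts. Their median was -0.33 log2 units, against -0.04 for all transcripts, and 25 of the 29 changes were below 0. At an unadjusted p under 0.05 there were 8, against 16.7% of all transcripts. With a pseudocount of 0.1, 2 were called lower, and 4 when only these groups were fitted. *Mki67*, the proliferation marker, was at 3.69, 4.15 and 4.65 TPM in P20 MIA, 3.43, 2.45 and 2.67 in MIA + CTRL, and 2.5, 3.16 and 2.65 in MIA + MG-REP (-0.45, SE 0.24, adjusted p = 0.366). *Top2a*, topoisomerase II alpha, was at 6.03, 5.85 and 7.54 TPM in P20 MIA and 5.63, 4.88 and 4.09 in MIA + MG-REP (adjusted p = 0.596), and *Pcna*, the clamp of DNA polymerases, at 94.2 to 132.46 and 78.93 to 96.19 (adjusted p = 0.36). The sums of the list were 313, 330 and 400 TPM in P20 MIA and 298, 289 and 284 in MIA + MG-REP.

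Of 28 interferon-stimulated transcripts, 2 were higher and 0 were lower, against 1.33% and 3.08% of all transcripts, and the median was -0.06. With median-ratio scaling 1 was called, and with quantile normalization 0. *Ifi204*, a sensor of DNA, was at 35.39, 29.71 and 25.51 TPM in P20 MIA, 13.75, 18.15 and 17.51 in MIA + CTRL, and 60.24, 60.29 and 50.52 in MIA + MG-REP (0.90, adjusted p = 0.0318, and up to 0.151 without P20 MIA 3). *Ifi27l2a*, a mitochondrial interferon-induced protein, was at 43.48, 32.59 and 29.53 TPM, 24.08, 20.95 and 28.71, and 62.19, 69.66 and 52.28 in the same order (0.79, adjusted p = 0.0263, and up to 0.141 without P20 MIA 3). Both were highest in MIA + MG-REP and lowest in MIA + CTRL, and differed between the P60 groups by 1.74 (adjusted p = 0.000302) and 1.29 (adjusted p = 0.00135). *H2-D1*, a class I heavy chain and the only 1 of 13 MHC class I transcripts called, was at 346.1, 315.21 and 345.39 TPM in P20 MIA, 269.99, 317.93 and 321.07 in MIA + CTRL, and 555.96, 571.15 and 471.42 in MIA + MG-REP (0.66, adjusted p = 0.026, and up to 0.106 without MIA + MG-REP 2).

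All transcripts had 1.33% higher and 3.08% lower. Among 31 transcripts of cytokines, chemokines and their receptors, 3 were higher (*Tnfsf8*, *Tnfsf13b* and *Ccr2*) and 2 lower. The latter were both chemokines: *Ccl24*, which attracts eosinophils, went from 26.83, 30.72 and 26.28 to 7.33, 12.16 and 9.22 TPM (-1.48, SE 0.30, adjusted p = 0.00502), and *Ccl9* from 175.61, 217.75 and 245.29 to 82.5, 97.53 and 90.64 (-1.22, SE 0.25, adjusted p = 0.00536). *Ccl24* was at 17.02 to 27.54 TPM in MIA + CTRL, overlapping P20 MIA, whereas *Ccl9* was at 86.87 to 112.65 there, near MIA + MG-REP. The abundant chemokines *Ccl3* and *Ccl4* had means of 2974 and 3807 TPM in P20 MIA and 1795 and 2395 in MIA + MG-REP and were not called (adjusted p = 0.22 and 0.17). Of 15 complement transcripts, *C2*, a protease of the classical pathway, fell from 14.37, 13 and 13.76 to 4.46, 4.26 and 5.69 TPM (-1.35, SE 0.25, adjusted p = 0.00227), and *Itgb2*, the beta chain of complement receptor 3, was higher (0.65, adjusted p = 0.0491) but did not pass without any 1 of the 6 libraries. Of 22 Toll-like and Fc receptor transcripts, *Tlr5*, the receptor of flagellin, was lower, at 39.07, 40.31 and 36.68 against 21.4, 18.83 and 20.09 TPM (-0.91, adjusted p = 0.0187, and up to 0.0767 without MIA + MG-REP 2).

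In the lysosome, 2 cathepsins of 33 transcripts were higher and 0 lower, against 1.33% and 3.08% of all transcripts. *Ctsh* was at 68.45, 78.1 and 70.91 TPM in P20 MIA, 58.53, 76.33 and 86.54 in MIA + CTRL, and 119.61, 121.76 and 120.16 in MIA + MG-REP (0.73, SE 0.16, adjusted p = 0.00746). *Ctse* was at 2.1, 2.08 and 2.7 TPM in P20 MIA, 2.09 to 2.36 in MIA + CTRL, and 9.4, 7.62 and 7.09 in MIA + MG-REP (1.45, SE 0.35, adjusted p = 0.0166, and up to 0.0811 without MIA + MG-REP 1). Of 27 transcripts of cholesterol and lipid handling, 3 were lower and 0 higher. *Insig1*, a sensor that restrains sterol synthesis, went from 172.47, 144.86 and 195.86 to 83.52, 79.81 and 88.21 TPM (-1.01, SE 0.16, adjusted p = 0.000535). The others were *Lpl* and *Hmgcs1*, the latter at 2.93 TPM or less throughout (adjusted p = 0.0375). *Hmgcs1* passed without MIA + MG-REP 3 but with none of the other 5 libraries left out (up to 0.2, without P20 MIA 1). The count of 3 was 2 without MIA + MG-REP 3 or P20 MIA 3, and 1, *Insig1*, without any other library. Of 24 glycolysis transcripts, *Slc16a1*, the lactate carrier MCT1, fell from 180.99, 166.97 and 165.32 to 66.38, 54.01 and 52.95 TPM (-1.56, SE 0.29, adjusted p = 0.00227), and a minor *Aldoa* transcript rose from at most 1.02 to at most 2.66 TPM (adjusted p = 0.044, and up to 0.241 without MIA + MG-REP 3).

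The remaining lists moved little, beside 1.33% higher and 3.08% lower among all transcripts. Of 42 ribosomal protein transcripts, 2 were higher, *Rpl13a* (0.37, adjusted p = 0.0179, and up to 0.103 without P20 MIA 3) and *Rplp1* (0.48, adjusted p = 0.048, lost without any 1 library). With median-ratio scaling 0 were called. Of 18 circadian transcripts, *Ciart* was lower (-1.14, adjusted p = 0.019, and up to 0.113 without P20 MIA 3). Of 27 immediate early and heat shock transcripts, *Nr4a1* was lower and an *Egr3* transcript (NM_001289927) higher, from at most 0.76 to at most 1.48 TPM (adjusted p = 0.0497, lost without any 1 library). Another *Egr3* transcript (NM_001289925) was not called. Of 24 transcripts of clearance receptors and their partners, *Elmo1*, an engulfment adaptor, was lower (-0.58, adjusted p = 0.0361, lost without any 1 library). None of 22 glucocorticoid-responsive transcripts was called by limma, and 5 had an unadjusted p under 0.05. Of 51 transcripts of neuritogenesis genes that the study had picked on these libraries, so that their direction is not independent evidence, *Ugt8a* alone was called, and the median was 0.01.

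The study had sorted all transcripts into 5 modules by clustering these same libraries, so that their levels are a description. The juvenile module, of 2318 transcripts, held 166 of the 438 falls and 0 rises, and its mean z-score went from 0.705 to 0.923 in P20 MIA to 0.0746 to 0.236 in MIA + MG-REP. The adult module, of 3276 transcripts, held 81 of the 189 rises and 0 falls (z-scores of 0.0756 to 0.389 and 0.503 to 0.843). The module named for repopulated adult microglia, of 1134 transcripts, held 94 rises and 11 falls, and its z-score moved from -0.456 to -0.248 to -0.0305 to 0.126. The immature and the MIA immature modules held 162 and 99 of the falls and 13 and 1 of the rises.

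The same step from P20 to repopulated P60 microglia was larger in count in Saline offspring, where 4409 transcripts (31%) were called, 1541 higher (10.8%) and 2868 lower (20.2%). The difference between the steps, tested as an interaction, was called for 997 transcripts (7.01%), with 311 (2.19%) more positive and 686 (4.82%) more negative in MIA offspring. The median of this difference over all transcripts was 0.17 log2 units, and 0.05 with median-ratio scaling or quantile normalization, under which 165 and 742, and 196 and 659, were called in these directions. Cell division genes were among the largest differences. *Mki67* was at 4.56, 4.6 and 2.84 TPM in P20 Saline and 234.48, 93.87 and 82.9 in Saline + MG-REP, against 2.5 to 4.65 TPM in the 6 MIA libraries, a difference of steps of -5.10 log2 units (SE 0.34, adjusted p = 1.24e-09). In all, 27 of the 29 cell division transcripts had a step more negative in MIA offspring and 0 a more positive one. The same held for 15 of 28 interferon-stimulated and 20 of 42 ribosomal protein transcripts, with 0 more positive in either list, while 9 of 24 homeostatic transcripts had a more positive step and 0 a more negative one (5 and 0 with median-ratio scaling).

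*Il12b*, a subunit of the interleukins IL-12 and IL-23, was at 1.76, 2.45 and 13.81 TPM in P20 Saline and 314.23, 126.93 and 127.81 in Saline + MG-REP, against 1.65 to 3.98 in the 6 MIA libraries (difference -5.23, SE 0.72, adjusted p = 2.4e-05). For several genes that rose in MIA offspring, the rise was larger in Saline offspring: *Lyz2* reached 7456 to 9673 TPM in Saline + MG-REP (difference -2.55, adjusted p = 2e-05), *Cd52* 2414 to 2841 (difference -1.91, adjusted p = 1.48e-05), *Ifi27l2a* 402 to 490 (difference -3.43, adjusted p = 3.93e-08) and *Clec12a* 85.35 to 151.53 (difference -2.60, adjusted p = 0.00159). In contrast, *Mlph*, a linker of melanosomes to myosin, kept 32.06 to 43.96 TPM in MIA + MG-REP against 39.33 to 65.22 in P20 MIA, and fell to 0.8 to 4.7 in Saline + MG-REP (difference 3.19, SE 0.48, adjusted p = 8.64e-05), and *Upk1b*, a uroplakin, was at 27.73 to 43.19 TPM in MIA + MG-REP and 0.41 to 3.25 in Saline + MG-REP (difference 3.20, adjusted p = 0.000973). The Saline + MG-REP libraries were uneven. In library order, monocyte and neutrophil transcripts summed to 98.29, 5982.16 and 407.1 TPM, and cell division transcripts to 3426.86, 1457.29 and 1291.45. What part this had in the differences was not tested.

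For several of the largest changes the difference between the offspring did not pass. *Tnfsf8* reached 48.39 to 57.24 TPM in Saline + MG-REP (difference of steps -0.88, SE 0.32, adjusted p = 0.106), *Tnfsf13b* 92.51 to 158.32 (-0.63, SE 0.41, adjusted p = 0.423), *Pdcd1* 30.06 to 47.79 (-0.67, SE 0.37, adjusted p = 0.329) and *Cdkn2a* 4.48 to 7.59 (0.05, SE 0.29, adjusted p = 0.934). *Myo18b* fell to 0.2 to 0.4 TPM in Saline + MG-REP (difference 0.90, SE 0.39, adjusted p = 0.191) and *Gdf15* to 63.27 to 75.09 (difference 0.78, SE 0.44, adjusted p = 0.342). For *Gpr165* it did pass, with a fall in Saline offspring to 0.07 to 1.54 TPM (difference 2.19, SE 0.56, adjusted p = 0.0169, and up to 0.0705 without Saline + MG-REP 1). A difference that misses the threshold does not show that the steps were equal.

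**Figure D5:**
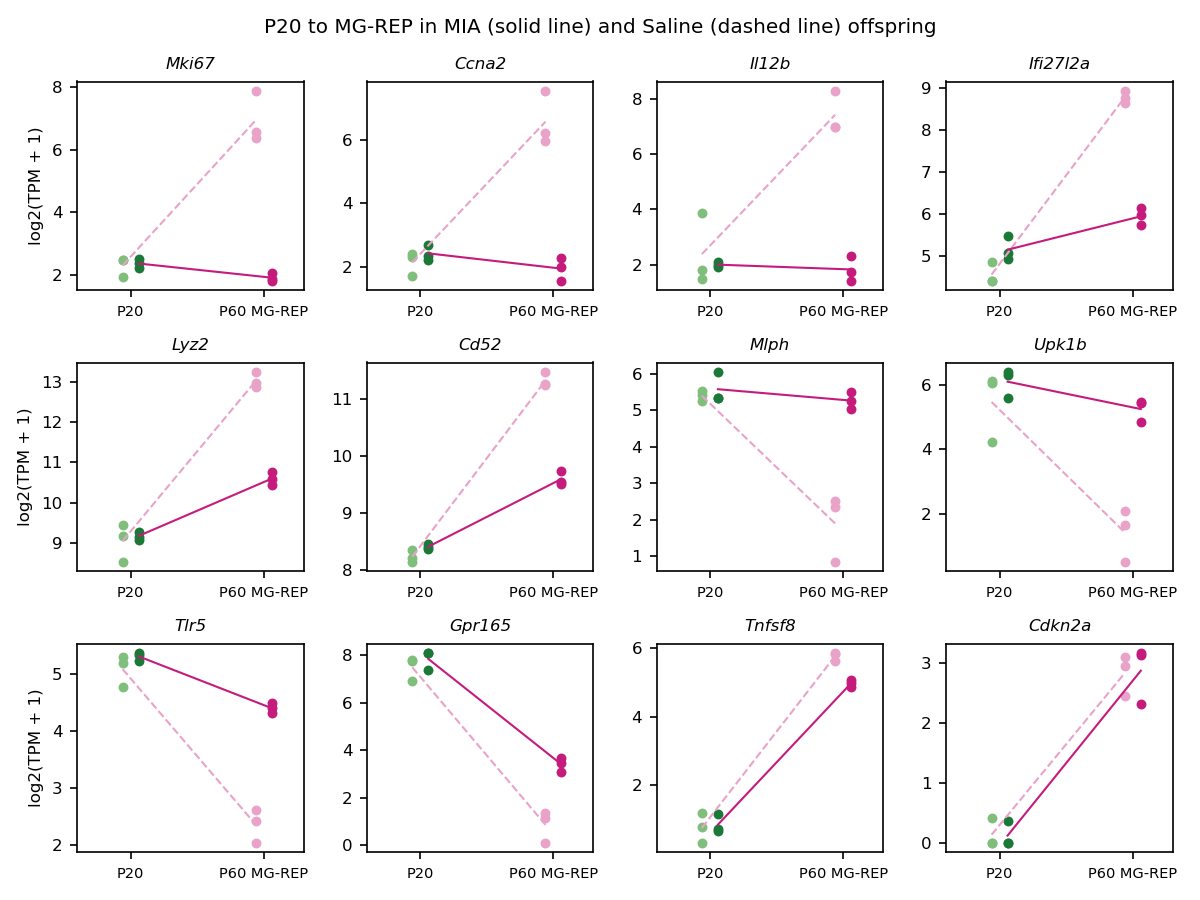
Level of 12 genes, as log2(TPM + 1), at P20 and in repopulated microglia at P60, in MIA offspring (dark green and dark pink points, solid line between means) and Saline offspring (light points, dashed line); vertical axes differ. *Mki67*, *Ccna2* and *Il12b* are high in the Saline + MG-REP libraries, and *Tnfsf8* and *Cdkn2a* rise in both kinds of offspring.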

How the data were processed

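RNA of CD11b+ microglia was measured in 30 libraries (10 groups of 3). The authors prepared non-stranded libraries from poly(A) RNA. Rsubread was their aligner (mm10) and featureCounts their counter, and transcripts that reached a CPM of 2 in fewer than 3 libraries were dropped. The table deposited by the authors holds TPM for 14225 transcripts, with a module for each. How TPM was computed is not given in the sources used here. Counts are not used here, so depth was estimated from the steps between low TPM. Of low values, 72.9% to 74.1% fell within 0.2 of a whole read (40% would by chance), so that reads could not be recovered exactly.

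With R 4.3.3, limma 3.58.1 was fitted to log2(TPM + 1), with 10 group means, contrasts and a mean-variance trend, and p-values were adjusted by Benjamini-Hochberg over all transcripts. A log2 fold change is the difference between group means on this scale, which understates changes of low genes. By the study's methods each P20 or P60 library is 1 animal. Libraries of the younger groups, which enter only the shared fit, are pools of brains. The litters of the P20 and P60 animals are not given. The replicate numbers were not treated as pairs in the main fit, and the labels do not give them as such. The fit was tested on simulated data.

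The members and gene lists were chosen with earlier results of these data known. The named genes are the 15 largest rises and falls (called, without overlap, at least 5 TPM in the higher group), up to 5 called members per list and direction or else the 3 most abundant, 5 per direction for the difference between offspring, and 8 genes known from earlier results. Others were chosen after their values were seen. In all, 14124 transcripts (99.29%) matched RefSeq genes of GRCm38.p6, the build of the coordinates and promoters. Alternatives were a pseudocount of 0.1, a filter at a mean of 1 TPM, median-ratio and quantile scaling, a replicate block, no trend, a fit of the compared groups alone, and each library left out in turn.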

Additional observations from a re-analysis of the deposited data

Results flagged for a closer look

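The step from P20 to repopulated P60 microglia differed between MIA and Saline offspring for 997 transcripts, by the interaction term of limma at an adjusted p under 0.05. Values here are the log2 step in MIA offspring minus that in Saline offspring. Among cell division genes, the difference was -5.67 for *Ube2c*, -5.10 for *Mki67*, -4.94 for *Ccna2*, -4.86 for *Ccnb2* and -4.79 for *Top2a*, and smaller for *Mcm3* (-1.14) and *Pcna* (-0.88). Among immune and myeloid genes, the difference was -5.23 for *Il12b*, -3.43 for *Ifi27l2a*, -2.60 for *Clec12a*, -2.55 for *Lyz2*, -2.45 for *Sh2d1b1*, -2.23 for *Ctse*, -1.91 for *Cd52*, -1.68 for *Ifi204*, -1.50 for *Lpl*, -1.07 for *Nr4a1*, -1.01 for *Egr3* and -0.98 for *Itgax*. Positive differences were 3.20 for *Upk1b*, 3.19 for *Mlph*, 2.92 for *Cd209f*, 2.54 for *Atp8a2* (a phospholipid flippase), 2.41 for *Snord19* (a small nucleolar RNA), 2.19 for *Gpr165*, 2.08 for *Lars2*, 1.82 for *Tlr5*, 1.74 for *Inmt*, 1.42 for *Ccl24* and 1.20 for *Gm13889*. Of 19 alternatives, the difference was lost in 14 for *Snord19* and *Itgax*, 13 for *Lars2* (adjusted p of up to 0.168, without MIA + MG-REP 3), 12 for *Ccl24*, 8 for *Lpl*, 7 for *Pcna*, 4 for *Gm13889*, 3 for *Nr4a1*, 2 for *Gpr165* and 1 each for *Mcm3* and *Inmt*. For the *Egr3* transcript given (NM_001289927) it was lost in 1 of 18. Another *Egr3* transcript (NM_001289925, difference -0.84, adjusted p = 0.0379 in limma) lost it in 11 of 18.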

How the results depend on the processing

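The count of 627 transcripts was 499 to 666 under another pseudocount, filter, scaling, normalization, trend or block, with a replicate block giving 666 (559 shared). It was 1764 when only the groups compared were fitted, of which 600 were among the 627. Leaving out 1 library gave 287 to 393, lowest without MIA + MG-REP 3. In all 6 such fits 207 of the 627 were called, and 187 under all 13 alternatives; none of the 627 was called with the opposite sign. Of 73 named calls, 37 held under all alternatives, 36 were lost under at least 1, and 0 reversed.

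For MIA + CTRL against P20 MIA (370), quantile normalization gave 628 and leaving out 1 library 100 to 225, lowest without P20 MIA 3. For the P60 groups (79), leaving out 1 library gave 41 to 71, lowest without MIA + MG-REP 1. For the difference between offspring (997), the replicate block gave 1022, the fit of the compared groups alone 829, and leaving out 1 library 672 (without Saline + MG-REP 1) to 1139 (without Saline + MG-REP 3). The block gave 335 for MIA + CTRL against P20 MIA and 66 between the P60 groups. By the labels, same-numbered P20 MIA and MIA + MG-REP libraries share only a number. Correlations of their deviations were 0.0318, 0.108 and -0.240, and 3 libraries per group are too few to show whether a litter or batch was shared. The cause of the shifts in these counts was not tested, beyond the fewer samples of the fits with 1 library left out. Depth limits low genes: at 1 kb, 1 read is worth 0.243 to 0.275 TPM.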
